A study of Arabidopsis thaliana with 54 samples.

Results

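The 10 genes described here are class III peroxidases of Arabidopsis that were listed by name: *PER15* (AT2G18150), *PER49* (AT4G36430), *PER62* (AT5G39580), *PER71* (AT5G64120), *PER4* (AT1G14540), *PER5* (AT1G14550), *PER52* (AT5G05340), *PER37* (AT4G08770), *PER58* (AT5G19880) and *PER32* (AT3G32980). They are 10 of the 34262 genes in the count tables and 10 of the 73 genes of the class III peroxidase family, and 9 of them passed the filter on low counts, *PER58* being the one that did not. How they were picked is not recorded beyond the list itself, but responses to the peptide CIF2 in wild type and *cif1 cif2* were known when the list was drawn up, so the genes are treated as chosen by their measured levels in these contrasts. Values of these contrasts are therefore given as a description, without a test, and tests are given for the receptor mutant *sgn3*, for comparisons between genotypes and for the time course without peptide. Expression data alone do not show whether these are stress-type enzymes, so they are called here the listed peroxidases.

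Class III peroxidases are secreted haem enzymes that use hydrogen peroxide to oxidise phenolic compounds in the cell wall. In roots they couple monolignols into lignin, including that of the Casparian strip, the ring-shaped wall impregnation of the endodermis that seals the space between cells. Others of the family are best known from wall stiffening and from the response to pathogens and wounding. CIF1 and CIF2 are sulfated peptides made in the stele, and SGN3 is the receptor kinase of endodermal cells that binds them.

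RNA was taken from whole roots of 5-day-old seedlings in the Col-0 background, with the aerial parts cut off. Wild type, the *cif1-2 cif2-2* double mutant (a single CRISPR line lacking both peptides but retaining the receptor) and *sgn3-3* (a T-DNA insertion line lacking the receptor) were each given 100 nM CIF2, or no peptide at all, and sampled after 30, 120 or 480 min. This gave 18 groups of 3 libraries, 1 from each of 3 batches, 54 in all. The 3 *cif1 cif2* libraries titled as treated for 480 min carry a second label naming them untreated, and they were taken as treated from their titles. The labels do not say whether the batches were separately grown, so the *P*-values measure the spread between these libraries.

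Between 21328819 and 38588050 reads per library fell on genes (median 28866174). The summed level of 8 endodermal markers (*CASP1* to *CASP5*, *ESB1*, *MYB36* and the peroxidase gene *PER64*) lay between 554 and 1199 CPM (counts scaled to library size) in the 27 untreated libraries and between 553 and 1804 CPM in the 27 treated ones, and that of 4 root hair markers between 219 and 391 and between 249.5 and 432 CPM. The endodermal sum was highest in *cif1 cif2* at 120 min with CIF2, where it lay between 1673 and 1804 CPM against 581 to 857 CPM without peptide. The study reports that CIF treatment changed the expression of all the *CASP* genes and raised *MYB36*. The endodermal sum therefore holds genes that respond to the peptide. The 6 leaf markers together stayed between 8.24 and 40.1 CPM, and 3 of them (*LHCB1.1*, *LHCB2.1* and *RBCS2B*) had 0 counts in at least 1 library. The part of these sums in the results on the listed peroxidases was not tested. In whole roots, fewer cells of a type and less RNA per cell cannot be told apart.

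*PER15* and *PER49* are the closest pair among the 10, with 82.0% identical residues between the proteins translated from RefSeq coding sequences. Their genes lie on different chromosomes, *PER15* at chr2:7892034-7893709 and *PER49* at chr4:17204385-17206033, both on the minus strand (RefSeq TAIR10.1). *PER62* (chr5:15847065-15849141) and *PER71* (chr5:25659257-25661007) form another pair with 74.2% identity, and *PER4* (chr1:4974021-4975705) and *PER5* (chr1:4978922-4980466) one with 71.3%. *PER4* and *PER5* are neighbours transcribed away from each other, 3217 bases apart. *PER37* (chr4:5598037-5600398) and *PER32* (chr3:13526071-13530098) share 75.8%. *PER52* (chr5:1578869-1580875) and *PER58* (chr5:6720384-6722477) have no member above 55.4% and 46.6% identity. Across all pairs of the 10, identity ranged from 37.2% to 82.0%, and protein length from 315 to 352 residues. No other annotated gene overlaps any of the 10.

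The 250 bases before the annotated start are shown for *PER15*, *PER49*, *PER62* and *PER71*. Of the listed genes, *PER15* and *PER49* had the highest values with CIF2 relative to untreated roots at 480 min in wild type and *cif1 cif2*. The windows of *PER62* and *PER71* hold the most copies of the letters searched for. Capitals mark TTGAC or its reverse complement GTCAA, the core of the W-box that WRKY transcription factors bind, in the RefSeq TAIR10.1 sequence read 5′ to 3′ on the gene's strand.
PER15 (chr2:7893710-7893959, minus strand): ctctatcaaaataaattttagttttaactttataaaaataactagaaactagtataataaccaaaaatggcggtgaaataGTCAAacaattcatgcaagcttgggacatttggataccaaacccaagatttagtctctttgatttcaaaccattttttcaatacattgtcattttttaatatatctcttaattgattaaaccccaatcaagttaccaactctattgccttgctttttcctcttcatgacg
PER49 (chr4:17206034-17206283, minus strand): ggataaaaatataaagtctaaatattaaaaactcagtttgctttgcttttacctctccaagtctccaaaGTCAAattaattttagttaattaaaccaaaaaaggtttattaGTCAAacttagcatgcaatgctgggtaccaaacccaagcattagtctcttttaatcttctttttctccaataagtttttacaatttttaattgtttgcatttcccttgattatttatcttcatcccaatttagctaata
PER62 (chr5:15849142-15849391, minus strand): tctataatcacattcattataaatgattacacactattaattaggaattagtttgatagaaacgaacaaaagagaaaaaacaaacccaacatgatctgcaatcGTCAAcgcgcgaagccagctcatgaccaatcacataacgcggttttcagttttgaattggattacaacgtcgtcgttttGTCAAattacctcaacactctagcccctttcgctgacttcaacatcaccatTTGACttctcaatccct
PER71 (chr5:25661008-25661257, minus strand): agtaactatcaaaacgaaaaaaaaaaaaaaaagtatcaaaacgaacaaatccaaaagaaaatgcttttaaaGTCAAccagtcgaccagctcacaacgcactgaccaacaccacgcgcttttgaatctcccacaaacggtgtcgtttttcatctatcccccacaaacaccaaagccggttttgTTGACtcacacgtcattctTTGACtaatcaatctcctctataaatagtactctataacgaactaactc
The window of *PER15* holds 1 copy, that of *PER49* 2 copies, and those of *PER62* and *PER71* 3 copies each. The window of *PER5* holds 2 copies and that of *PER52* 1 copy, while none was found in those of *PER4*, *PER37*, *PER58* and *PER32*. In all, 6 of the 10 windows hold the letters on either strand, against 44.9% of 27443 windows of the same length before annotated genes, and 2 of the 10 hold at least 3 copies, against 3.4%. AC elements, known from genes of lignin synthesis, were searched for on both strands as ACCTACC, as the variant with the letters ACCAACC and as the one with ACCTAAC. One was found in the window of *PER52* alone (6.1% of all windows), where it does not overlap the TTGAC copy. The G-box letters CACGTG were found in none of the 10 (6.5% of all windows). These matches describe the letters in the windows and are not evidence of binding.

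*PER15* has a neighbour, *PER14*, 3156 bases away, whose protein is 88.5% identical. The longest identical stretch of their coding sequences runs over 126 bases, from base 183 to base 308 of the 1017 bases of *PER15*, and is shown because single reads from it can come from either gene.
PER15, shared with PER14: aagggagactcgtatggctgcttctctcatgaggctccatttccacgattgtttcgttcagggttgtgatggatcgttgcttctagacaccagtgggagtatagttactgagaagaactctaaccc
*PER14* had at most 5 counts in any library. *PER37* shares a stretch of 101 identical bases with its neighbour *PER38* (92.8% identity). In untreated wild type *PER38* stood at 2.97 CPM per kilobase of exon and *PER37* at 42.3. Reads without a unique alignment were counted apart and left out. Those lying wholly in such a stretch can therefore be missing from both genes of the pair.

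*PER15* was low in roots without peptide and far higher in roots with CIF2 when SGN3 was present. In untreated wild type its levels in batches 1, 2 and 3 were 5.07, 6.17 and 4.06 CPM after 30 min, then 2.89, 4.89 and 2.53 CPM, and 8.27, 9.90 and 2.13 CPM after 480 min. With CIF2 they were 15.6, 18.8 and 14.4 CPM after 30 min, then 44.5, 42.5 and 33.7 CPM, and 108.5, 111.9 and 101.2 CPM after 480 min. Treated and untreated libraries did not overlap at any time, and the treated level was higher at each later time. On the log2 scale the fold change was 1.67 ± 0.36 after 30 min (SE, n = 3 per group, as for all values below), then 3.54 ± 0.36 and finally 4.05 ± 0.33, which is a fold of 16.6. It differs by batch at 480 min, since the untreated level of batch 3 was low, and came to 3.62 ± 0.40 without batch 3 and 4.40 ± 0.36 without batch 2.

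In *cif1 cif2*, which lacks the peptides of its own, *PER15* reached similar levels with CIF2. The untreated libraries held 5.90, 1.94 and 3.54 CPM at 480 min, and the treated ones 123.0, 154.7 and 106.0 CPM. Relative to no peptide, *PER15* changed on the log2 scale by 1.59 ± 0.35 after 30 min, 3.47 ± 0.38 after 120 min and 5.09 ± 0.36 after 480 min, and the libraries again did not overlap. In *sgn3*, every library stayed between 1.24 and 10.8 CPM, treated or not. At 480 min the untreated *sgn3* libraries held 10.8, 1.78 and 2.77 CPM and the treated ones 6.96, 5.01 and 3.33 CPM, so the groups overlapped. The log2 fold change there was 0.02 ± 0.39, with a 95% interval from −0.74 to 0.79 (edgeR quasi-likelihood test, adjusted *P*-value 0.999). In *sgn3* it was 0.13 ± 0.39 at 30 min and 0.62 ± 0.56 at 120 min. The 95% interval at 120 min ran from −0.47 to 1.71.

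*PER49* followed a like course at a higher level (10.99 CPM per kilobase of exon in untreated wild type, against 3.63 for *PER15*). In wild type at 480 min the untreated libraries held 24.3, 29.6 and 8.51 CPM and the treated ones 360.2, 396.6 and 339.2 CPM. At 30 min the untreated libraries held 10.5, 15.5 and 8.67 CPM and the treated ones 19.6, 25.3 and 18.04 CPM. The change at 30 min was thus small beside the later ones, and the groups did not overlap at any time. The log2 fold changes were 0.87 ± 0.39, 3.18 ± 0.37 and 4.22 ± 0.37 in wild type and 1.07 ± 0.39, 4.13 ± 0.39 and 5.16 ± 0.40 in *cif1 cif2* at the 3 times. The highest level of *PER49* in any library was 561 CPM, in *cif1 cif2* at 480 min in batch 2. In *sgn3* all libraries lay between 3.81 and 24.96 CPM. Their log2 fold changes with CIF2 were 0.38 ± 0.40, 0.69 ± 0.46 and 0.24 ± 0.38 (edgeR, adjusted *P*-values 0.824, 1.0 and 0.978).

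**Figure D1:**
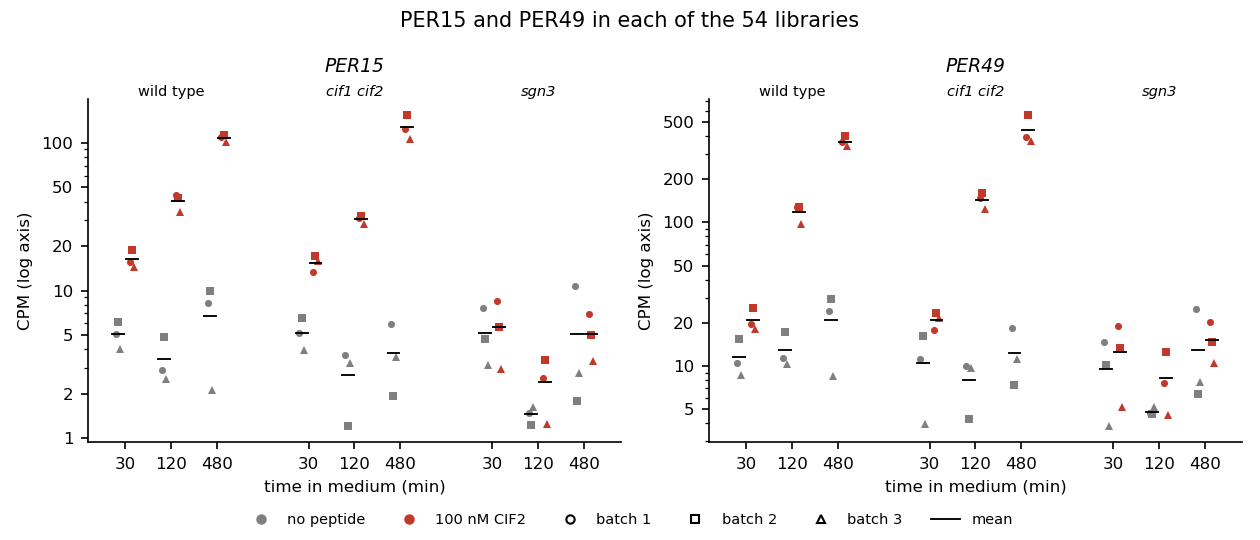
CPM of *PER15* and *PER49* on log axes in each library, by genotype and time, with grey points for no peptide, red points for 100 nM CIF2, a marker shape for each batch and black bars for the mean of 3 libraries. Red points lie above grey ones in wild type and *cif1 cif2* at every time, up to 155 CPM for *PER15* and 561 CPM for *PER49*, and mix with them in *sgn3*.

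Ordered by mean level over the 18 groups, *PER15* was highest in *cif1 cif2* at 480 min with CIF2 (127.9 ± 24.7 CPM, SD) and in wild type at 480 min with CIF2 (107.2 ± 5.47 CPM), and these neighbours overlapped. Wild type at 120 min with CIF2 (40.2 ± 5.72 CPM) and *cif1 cif2* at 120 min with CIF2 (30.5 ± 1.95 CPM) followed, each step without overlap. Wild type (16.3 ± 2.27 CPM) and *cif1 cif2* (15.4 ± 1.98 CPM) with CIF2 for 30 min came next, overlapping each other but not the groups above and below. The remaining 12 groups, all untreated or *sgn3*, had means between 1.46 and 6.77 CPM, and each overlapped the next in the order. *PER49* was also highest with CIF2 at 480 min, at 440 ± 106 CPM in *cif1 cif2* and 365 ± 29.04 CPM in wild type, but at 120 min *cif1 cif2* (144 ± 18.3 CPM) stood above wild type (118 ± 17.4 CPM), and within each of these pairs the libraries overlapped. Below that, down to 4.84 CPM, every group overlapped the next, the groups with CIF2 for 30 min included.

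Genes whose group means resembled those of *PER15* most were *GA2OX2*, a gibberellin 2-oxidase gene (Pearson correlation 0.969 over the 18 group means of log2 CPM), *PER49* (0.964), *KCS20* (0.963), *MYB107* (0.963) and *KCS10* (0.957). For *PER49* they were *HIPL2* (0.977), *PER15* (0.964), *MYB93* (0.952), *NFD4* (0.950) and *RLP38* (0.950). KCS enzymes elongate very long chain fatty acids, and MYB107 and MYB93 are transcription factors known from suberin formation. These correlations describe patterns over groups that include the treated ones, and the group means share batches. Within the listed peroxidases, *PER4* and *PER5* had the highest correlation over the groups (0.976), followed by *PER15* with *PER49* (0.964) and *PER37* with *PER71* (0.932), while *PER32* ran opposite to *PER52* (−0.855) and *PER49* (−0.825).

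*PER62* had the largest log2 fold change of the listed genes at 30 min. Without peptide, wild type held 64.2, 63.3 and 56.0 CPM after 30 min, 25.1, 33.1 and 20.3 CPM after 120 min and 6.12, 6.77 and 7.41 CPM after 480 min. With CIF2 it held 265.9, 265.2 and 207.4 CPM, then 214.9, 239.7 and 181.4 CPM, then 69.0, 59.7 and 79.4 CPM. Both series were lower at 480 than at 30 min, the untreated one by more in proportion. With CIF2 the log2 fold changes were 2.01 ± 0.20, 3.02 ± 0.21 and 3.37 ± 0.24 in wild type and 2.70 ± 0.21, 3.86 ± 0.22 and 4.43 ± 0.26 in *cif1 cif2*. Thus the fold was largest at 480 min, when the treated level itself was the lowest of the 3 times. In *sgn3* the values were 0.44 ± 0.20, 0.27 ± 0.21 and 0.33 ± 0.30 (edgeR, adjusted *P*-values 0.684, 1.0 and 0.958).

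*PER71*, the closest relative of *PER62* and a gene linked to the restriction of growth by wall peroxidases, was more abundant (367 CPM per kilobase of exon in untreated wild type, against 24.2) and changed less. At 480 min wild type held 333.1, 377.9 and 441.7 CPM without peptide and 1069, 983 and 1794 CPM with CIF2. Its log2 fold changes were 0.47 ± 0.20, 0.82 ± 0.20 and 1.73 ± 0.21 in wild type and 0.54 ± 0.20, 0.59 ± 0.20 and 1.67 ± 0.21 in *cif1 cif2*. The 0.47 at 30 min in wild type came to 0.73 ± 0.24 without batch 1, in which the treated library (420 CPM) barely exceeded the untreated one (409 CPM). In *sgn3* treated and untreated libraries of *PER71* overlapped at all 3 times.

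*PER4* and *PER5*, the divergent neighbours, had smaller changes, which were present at 30 min. *PER4*, a gene often followed as a marker of the response to bacterial elicitors, held 157, 164 and 156 CPM in untreated wild type at 30 min and 353.7, 420.9 and 367.5 CPM with CIF2. Its log2 fold changes were 1.26 ± 0.15, 0.80 ± 0.15 and 1.53 ± 0.15 in wild type and 1.36 ± 0.15, 0.75 ± 0.15 and 1.39 ± 0.15 in *cif1 cif2*, so that the middle time had the smallest. *PER5* was less abundant per length (22.0 CPM per kilobase of exon against 126 for *PER4* in untreated wild type) and had log2 fold changes of 0.89 ± 0.16, 0.94 ± 0.16 and 1.09 ± 0.20 in wild type and 1.05 ± 0.16, 1.35 ± 0.16 and 1.13 ± 0.20 in *cif1 cif2*. The value of *PER5* in wild type at 480 min came to 0.88 ± 0.28 without batch 3 and 1.34 ± 0.22 without batch 1. *PER37*, a peroxidase of vascular bundles, had 0.87 ± 0.12, 1.08 ± 0.12 and 1.23 ± 0.12 in wild type and 0.90 ± 0.12, 1.72 ± 0.12 and 1.68 ± 0.12 in *cif1 cif2*. The treated libraries of all 3 genes lay above the untreated ones at every time in both genotypes.

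*PER52* is known for a part in lignin formation in stems. In wild type and *cif1 cif2* its treated libraries lay wholly above the untreated ones at 480 min only. *PER32*, described below, also separated at 480 min only in wild type, but downward. At 30 min wild type held 4.81, 9.59 and 2.68 CPM without peptide and 3.78, 7.36 and 4.71 CPM with CIF2, and at 120 min the groups overlapped too. At 480 min it held 9.28, 12.4 and 1.60 CPM without peptide and 47.6, 67.9 and 33.5 CPM with CIF2. The log2 fold changes were −0.08 ± 0.63, −0.17 ± 0.61 and 2.78 ± 0.53 in wild type and 0.29 ± 0.60, 0.99 ± 0.68 and 3.49 ± 0.55 in *cif1 cif2*. The standard errors are the largest of the 9 genes, and the early values in *cif1 cif2* depended on the batches used, 0.29 becoming 1.101 ± 0.60 without batch 2 and −0.42 ± 0.67 without batch 3. *PER49* at 30 min in *cif1 cif2* moved in the same way, to 1.48 ± 0.44 and 0.59 ± 0.43.

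*PER58* had at most 28 counts in any library and stayed below 1 CPM everywhere. In wild type at 480 min it held 0.202, 0.157 and 0.106 CPM without peptide and 0.982, 0.838 and 0.583 CPM with CIF2, a log2 fold change of 2.36 ± 0.44 in a fit without the filter on low counts. In *cif1 cif2* at 480 min the value was 1.86 ± 0.45. At 30 and 120 min the values were 1.26 ± 0.41 and 0.43 ± 0.42 in wild type, with treated libraries above untreated ones at 30 min, and 0.30 ± 0.36 and 0.02 ± 0.43 in *cif1 cif2*. At these counts its level is poorly resolved.

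*PER32* was the single member whose libraries with CIF2 lay wholly below those without at 480 min in wild type and *cif1 cif2*. Of all genes, 8.7% and 9.58% did so in these genotypes, so 1 of 10 members is near that share. In *cif1 cif2* the treated *PER32* libraries also lay wholly below at 120 min (1100 to 1384 against 1411 to 1887 CPM), where 9.95% of all genes did. *PER32* was the most abundant peroxidase of the 73 in untreated wild type per kilobase of exon, at a mean of 1143 CPM per kilobase (910.4 to 1348 over 9 libraries). The next member by that measure was *PER71* (367 CPM per kilobase, place 11 of 73), and *PER15* stood at place 49 with 3.63. In wild type at 480 min *PER32* held 1906, 1923 and 1763 CPM without peptide and 687, 628 and 579 CPM with CIF2. All treated libraries were below all untreated ones, by 2.96-fold. Its log2 fold changes were −0.03 ± 0.08, −0.23 ± 0.08 and −1.57 ± 0.08 in wild type, followed by 0.03 ± 0.08, −0.46 ± 0.08 and −1.50 ± 0.08 in *cif1 cif2*. The −0.23 at 120 min in wild type came to −0.09 ± 0.08 without batch 1 and −0.32 ± 0.11 without batch 2. In *sgn3* at 480 min the treated libraries held 1766, 1548 and 1455 CPM against 1663, 1399 and 1521 CPM without peptide, a log2 fold change of 0.05 ± 0.08 with a 95% interval from −0.10 to 0.21 (edgeR, adjusted *P*-value 0.977). *PER34*, the closest relative of *PER32* with 89.0% identity, did not share the lower values. At 480 min its log2 fold change came to 0.35 ± 0.12 in wild type, with 0.50 ± 0.12 for *cif1 cif2*, and the longest stretch identical to *PER32* has 36 bases.

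**Figure D2:**
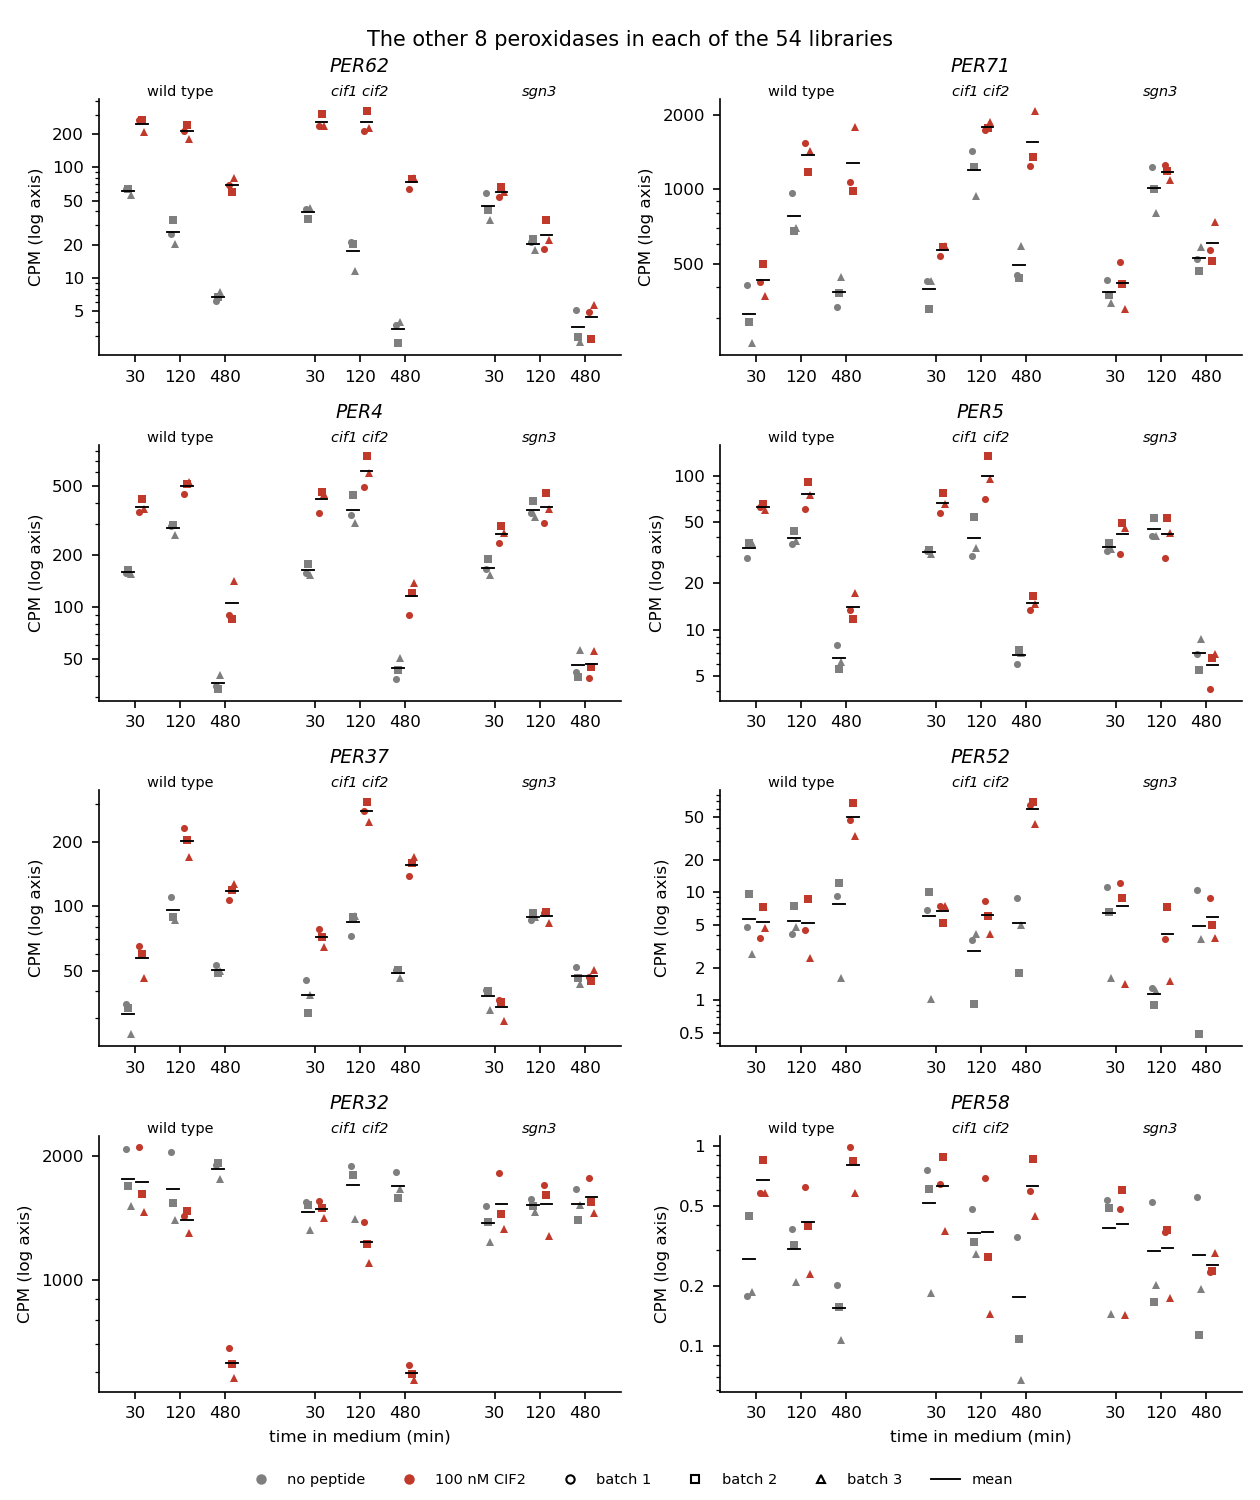
CPM of the other 8 listed peroxidases on log axes in each library, by genotype and time, with grey points for no peptide, red points for 100 nM CIF2, a marker shape for each batch and black bars for the mean of 3 libraries. In wild type *PER52* and *PER32* separate at 480 min only, *PER32* being lower with CIF2 (579 to 687 CPM). *PER58* stays below 1 CPM in every library.

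A gene was called here where its adjusted *P*-value did not exceed 0.05 and it changed by 1 or more on the log2 scale. By that rule the 9 genes gave 3, 4 and 9 calls in wild type at the 3 times, and 4, 5 and 9 in *cif1 cif2*. The shares of all 19668 genes called were 1.17%, 1.48% and 2.29% in wild type and 1.86%, 2.1% and 2.47% in *cif1 cif2*. Since these contrasts are treated as having chosen the genes, nothing follows from the difference. Without batch 3 *PER5* fell below the fold threshold in wild type at 480 min (8 calls), and without batch 2 in *cif1 cif2* at 30 min (0.97 ± 0.15), while without batch 1 it was above it in wild type at 120 min (5 calls). All calls were of higher levels except that of *PER32* at 480 min in each genotype. Treated libraries lay wholly above untreated ones in 7, 7 and 9 of the 10 genes at the 3 times in wild type, where 9.32%, 10.7% and 10.9% of all genes did, and in 7, 7 and 9 in *cif1 cif2* (11.1%, 10.6% and 11.9% of all genes). The median log2 fold change over all genes was between −0.02 and 0.00 in these 6 contrasts.

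**Figure D3:**
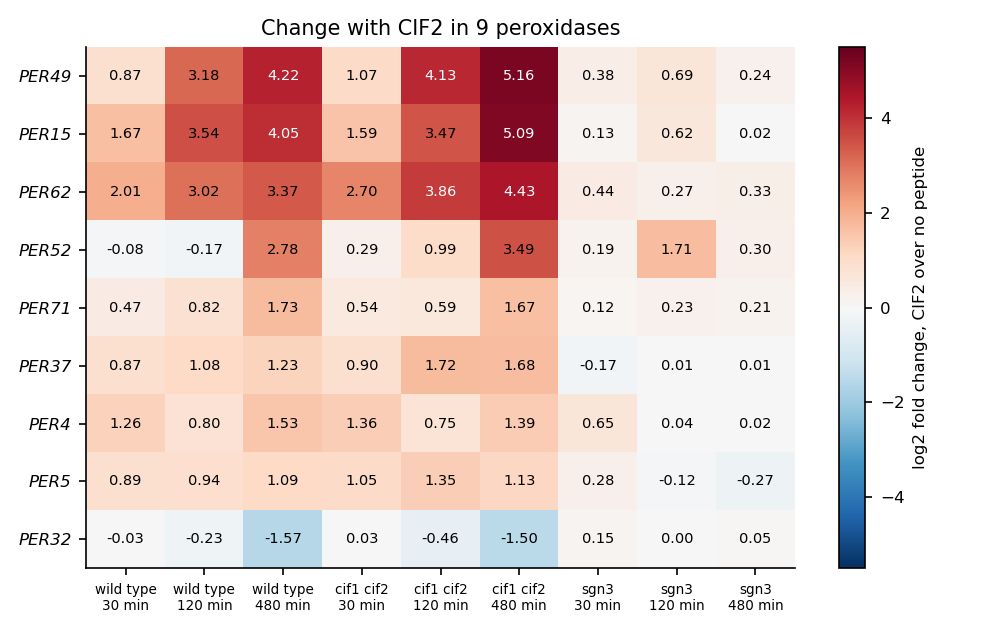
Log2 fold change with CIF2 over no peptide (colour and printed value) for 9 listed peroxidases in 9 contrasts of genotype and time, blue for lower and red for higher. Values reach 5.16 for *PER49* in *cif1 cif2* at 480 min, while the *sgn3* columns hold values of 1.71 or less.

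The contrasts between CIF2 and no peptide in *sgn3* show how the genes behaved without the receptor. None of the 9 genes passed the thresholds at 30, 120 or 480 min, where 0.0254%, 0% and 0% of all genes did. By limma-trend and by DESeq2 none passed either. Of the 27 values, 3 had an unadjusted *P*-value under 0.05 in edgeR, those of *PER4* and *PER62* at 30 min and *PER52* at 120 min. How many of all genes lay under that cut-off was not counted. Treated libraries lay wholly above untreated ones in 1, 1 and 0 of the 10 genes at the 3 times (3.91%, 3.18% and 4.5% of all genes). *PER4* came closest to the thresholds. Its *sgn3* libraries held 164, 188 and 152 CPM without peptide and 235, 292 and 268 CPM with CIF2 at 30 min, all treated ones above the untreated ones. The log2 fold change was 0.65 ± 0.15 with a 95% interval from 0.36 to 0.94 (edgeR, adjusted *P*-value 0.0785), and the adjusted *P*-value ranged from 0.0131 with DESeq2 to 0.906 without the batch term. At 120 and 480 min *PER4* was at 0.04 ± 0.14 and 0.02 ± 0.15. *PER52* at 120 min had a value of 1.71 ± 0.83, with untreated libraries at 1.31, 0.909 and 1.21 CPM and treated ones at 3.66, 7.27 and 1.51 CPM (edgeR, adjusted *P*-value 1.0).

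Differences between the effect of CIF2 in *sgn3* and in wild type are set out as a description, because the wild-type effect is treated as having chosen the genes. At 480 min the effect in *sgn3* minus that in wild type was −4.03 ± 0.51 for *PER15*, −3.98 ± 0.52 for *PER49*, −3.04 ± 0.39 for *PER62* and −2.49 ± 0.81 for *PER52* on the log2 scale. For *PER4*, *PER71*, *PER5* and *PER37* it was −1.52 ± 0.22, −1.52 ± 0.29, −1.37 ± 0.29 and −1.22 ± 0.17. *PER32*, whose change in wild type was downward, had a difference of 1.62 ± 0.11. The effect in *cif1 cif2* minus that in wild type at 480 min was 1.06 ± 0.36 for *PER62*, 1.04 ± 0.49 for *PER15*, 0.93 ± 0.50 for *PER49*, 0.71 ± 0.76 for *PER52* and 0.45 ± 0.17 for *PER37*. For *PER32*, *PER5*, *PER71* and *PER4* it was 0.06 ± 0.11, 0.04 ± 0.28, −0.06 ± 0.29 and −0.15 ± 0.21. These effects combine treated and untreated levels, which the next comparisons take apart.

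With CIF2 present, *cif1 cif2* was compared with wild type, a contrast of treated libraries alone, which are also those of the CIF2 effects above. No gene of the 9 passed both thresholds at any time (0.0661%, 0.142% and 0.0203% of all genes did at 30, 120 and 480 min). limma-trend and DESeq2 also called none. An unadjusted *P*-value under 0.05 in edgeR was found for 6 of the 27 values, and the share of all genes under it was not counted. *PER37* had the clearest difference. At 120 min its treated libraries held 233, 204 and 171 CPM in wild type and 280.5, 309 and 248 CPM in *cif1 cif2*, a log2 difference of 0.47 ± 0.11 (edgeR, adjusted *P*-value 0.0254), which is below the fold threshold. For *PER15* and *PER49* at 480 min the differences were 0.24 ± 0.27 and 0.25 ± 0.32 (adjusted *P*-values 0.83 and 0.852), and for *PER62* 0.08 ± 0.20 (0.939).

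Without peptide, neither mutant differed from wild type past both thresholds in any of the 9 genes at any time. Of all genes, 0.0915%, 0.0814% and 0.0559% passed in *cif1 cif2* at 30, 120 and 480 min and 0.0508%, 0.0508% and 0.0559% in *sgn3*. limma-trend and DESeq2 called none of the 9 in any of them. Of the 54 values, 18 had an unadjusted *P*-value under 0.05 in edgeR, a count with no share of all genes to set it against. *PER62* was lower in both mutants at each time, the log2 difference from wild type being −0.62 ± 0.20, −0.58 ± 0.22 and −0.98 ± 0.30 in *cif1 cif2* and −0.47 ± 0.20, −0.36 ± 0.21 and −0.93 ± 0.29 in *sgn3*, with adjusted *P*-values between 0.146 and 1.0. The wild-type libraries are shared by both mutants, and all these untreated libraries also served as controls of the CIF2 effects above. *PER32* differed in *sgn3* at 30 min by −0.35 ± 0.08 (log2, edgeR, adjusted *P*-value 0.0392), with 1510, 1381 and 1238 CPM against 2077, 1687 and 1509 CPM in wild type. The libraries overlap by 1 CPM but each batch has the lower level in *sgn3*. *PER15*, *PER49* and *PER52* had the lowest untreated levels in *sgn3* at 120 min, at −1.17 ± 0.52, −1.37 ± 0.44 and −2.22 ± 0.79 against wild type, with adjusted *P*-values of 0.958, 0.579 and 0.725.

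Several of the genes also changed over time in the medium without peptide. These contrasts reuse the untreated libraries that served as controls above. From 30 to 120 min, *PER37* and *PER71* rose in all 3 genotypes. *PER37* held 35.0, 33.5 and 25.1 CPM in wild type at 30 min and 111, 89.2 and 86.7 CPM at 120 min, a log2 change of 1.62 ± 0.12 (edgeR, adjusted *P*-value 5.28e-14), and rose by 1.14 ± 0.12 in *cif1 cif2* and 1.24 ± 0.12 in *sgn3*. *PER71* rose by 1.32 ± 0.21, 1.62 ± 0.21 and 1.40 ± 0.21 in wild type, *cif1 cif2* and *sgn3*. *PER62* fell in each, by 1.23 ± 0.21, 1.19 ± 0.21 and 1.12 ± 0.21 (adjusted *P*-values 5.63e-06, 1.89e-05 and 4.16e-05). *PER4* rose by 1.15 ± 0.15 in *cif1 cif2* and 1.11 ± 0.15 in *sgn3*, and its change of 0.84 ± 0.15 in wild type passed the adjusted *P*-value alone. That made 3, 4 and 6 calls among the 9 genes in wild type, *cif1 cif2* and *sgn3*, where 5.46%, 5.13% and 5.21% of all genes were called.

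The additional calls in *sgn3* were *PER15* and *PER52*, and these rested on batch 1. *PER15* fell by 1.74 ± 0.49 (edgeR, adjusted *P*-value 0.00574) from 7.60, 4.70 and 3.13 CPM to 1.49, 1.24 and 1.64 CPM, and *PER52* by 2.33 ± 0.78 (0.0204) from 11.3, 6.55 and 1.62 CPM to 1.31, 0.909 and 1.21 CPM. Without batch 1 the changes were −1.34 for *PER15* (adjusted *P*-value 0.0856), −1.72 for *PER52* (0.315) and −0.89 for *PER62*, which left 3 calls of the 6. In *cif1 cif2* the fall of *PER62* was −0.90 without batch 3, and the rise of *PER37* was 0.98 without batch 2, both under the fold threshold.

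By 480 min, *PER62*, *PER4* and *PER5* had fallen in all 3 genotypes. In wild type *PER62* fell by 3.17 ± 0.24, *PER5* by 2.35 ± 0.19 and *PER4* by 2.13 ± 0.16 (edgeR, adjusted *P*-values 1.98e-14, 2.12e-13 and 1.1e-14). In *cif1 cif2* the falls were 3.54 ± 0.26, 2.25 ± 0.19 and 1.89 ± 0.15, and in *sgn3* 3.63 ± 0.25, 2.29 ± 0.19 and 1.88 ± 0.15. *PER4* in wild type thus went from 157, 164 and 156 CPM at 30 min over 295.4, 296.0 and 261.2 CPM to 34.8, 33.5 and 40.4 CPM. *PER37* remained higher at 480 than at 30 min, by 0.70 ± 0.12 in wild type, 0.35 ± 0.12 in *cif1 cif2* and 0.32 ± 0.12 in *sgn3* (adjusted *P*-values 1.14e-05, 0.0235 and 0.0392). *PER71* stood 0.31 ± 0.20 above its 30 min level in wild type. Its mean at 480 min was 491 CPM against 393 CPM at 30 min in *cif1 cif2*, and 524 against 382 CPM in *sgn3*. The 3 calls per genotype, those of *PER62*, *PER4* and *PER5*, compare with 7.11%, 5.43% and 5.78% of all genes.

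**Figure D4:**
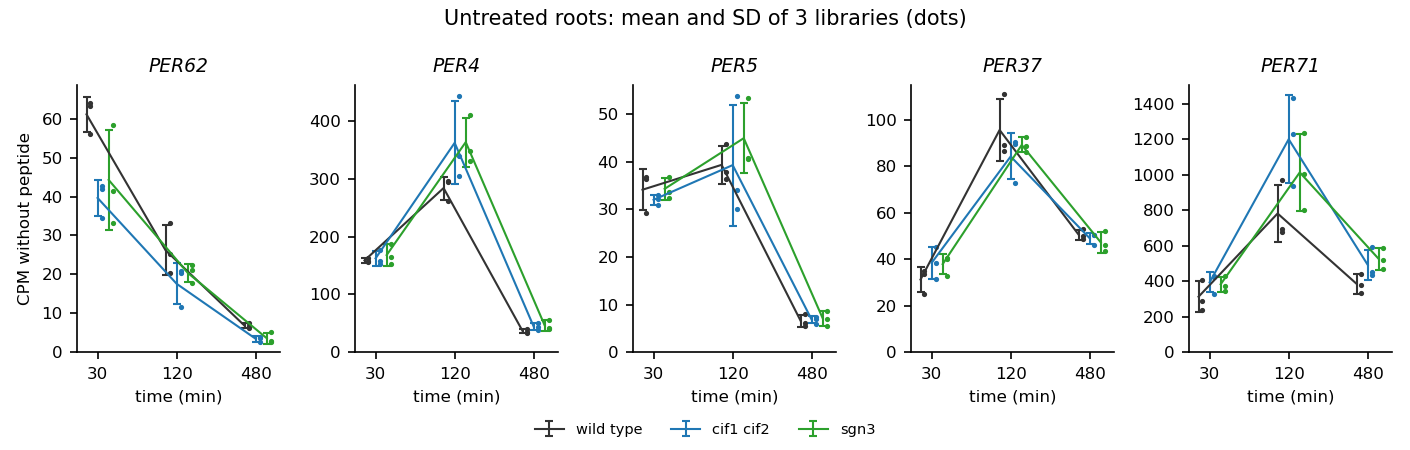
CPM without peptide at 30, 120 and 480 min for *PER62*, *PER4*, *PER5*, *PER37* and *PER71*, with lines through the mean of 3 libraries, bars for the SD and dots for libraries, in wild type (black), *cif1 cif2* (blue) and *sgn3* (green). *PER62* falls throughout, *PER4* peaks at 120 min before its lowest level at 480 min, and *PER37* and *PER71* are highest at 120 min.

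*PER15*, *PER49* and *PER52* also varied between untreated libraries of the same group, in some groups with the same library high or low for all 3. At 480 min in *sgn3*, batch 1 held 10.8 CPM of *PER15*, 24.96 CPM of *PER49* and 10.4 CPM of *PER52*, while batches 2 and 3 held 1.78 and 2.77, 6.39 and 7.77, and 0.481 and 3.73 CPM. In wild type at 480 min batch 3 was the low library for all 3 genes. The summed endodermal markers of these libraries were 554, 627 and 765 CPM in *sgn3* and 729, 673 and 847 CPM in wild type, the highest being batch 3 in both, and the leaf markers 23.5, 22.1 and 21.2 and 23.4, 22.4 and 29.5 CPM. The part of these differences between libraries was not tested. The coefficient of variation within untreated groups had a median of 44.2% for *PER15*, 45.4% for *PER49* and 67.6% for *PER52*, against 8.6% for *PER32* and 10.9% for *PER4*. With CIF2 the medians for *PER15* and *PER49* were 14.2% and 18.3%.

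Of the other 63 peroxidases, 48 passed the filter on low counts, and 6 were called with CIF2 in wild type or *cif1 cif2* at some time. The 5 with the largest changes were *PER72* (2.34 ± 0.12 in *cif1 cif2* at 120 min), *PER11* (2.08 ± 0.12 in wild type at 480 min), *PER9* (1.96 ± 0.15 in *cif1 cif2* at 120 min), *PER20* (1.96 ± 0.14 in *cif1 cif2* at 480 min) and *PER3* (−1.13 ± 0.10 in wild type at 480 min). The remaining one was *PER38*, the neighbour of *PER37*, at 1.02 ± 0.27 in *cif1 cif2* at 120 min. As the share of all genes called at any of these times in either genotype was not counted, nothing follows from the 6. None of the 48 exceeded the 4.05 of *PER15* or the 4.22 of *PER49* in wild type at 480 min, and their median there was 0.12. Since this contrast is treated as having chosen the listed genes, nothing follows from that gap. At 480 min in wild type 5 of the 48 were called, against 2.29% of all genes, and in *sgn3* the 48 values lay between −0.47 and 0.66 at that time.

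The 5 peroxidases placed at the Casparian strip, *PER3*, *PER9*, *PER39*, *PER64* and *PER72*, had mixed values. At 480 min in wild type *PER72* was at 1.02 ± 0.11 and *PER9* at 1.02 ± 0.15, *PER64*, which is needed for lignin at the strip, at 0.50 ± 0.12, *PER39* at −0.43 ± 0.09 and *PER3* at −1.13 ± 0.10. Values at 30 min in wild type were between −0.36 and 0.38. In *cif1 cif2* at 120 min *PER72*, *PER9* and *PER64* were at 2.34 ± 0.12, 1.96 ± 0.15 and 0.89 ± 0.12, in the libraries with the highest endodermal marker sums, of which *PER64* is itself a part. There *PER72* and *PER9* were above *PER37*, *PER5*, *PER52*, *PER4*, *PER71* and *PER32* and below *PER15*, *PER49* and *PER62*. After *PER14*, *PER72* is the nearest relative of *PER15* and *PER49* outside the list, at 67.1% and 67.6% identity.

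**Figure D5:**
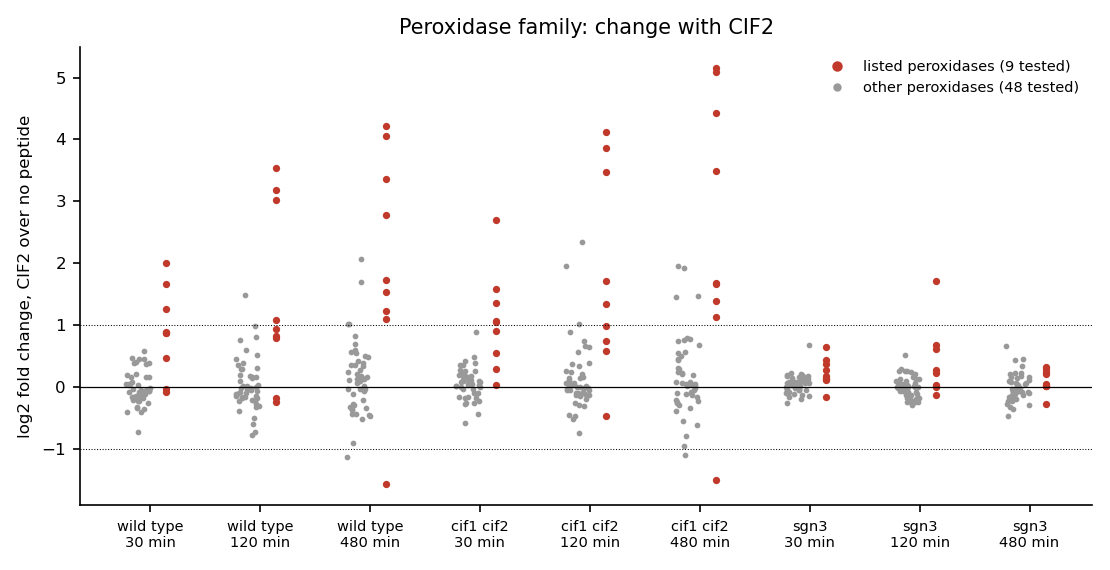
Log2 fold change with CIF2 over no peptide of the peroxidase family in 9 contrasts of genotype and time, with red points for the 9 listed peroxidases and grey points for the other 48 tested. Dotted lines mark a log2 fold change of 1 in either direction. The listed genes reach 4.22 in wild type and 5.16 in *cif1 cif2*, the other ones 2.08 and 2.34. Contrasts in these genotypes are treated as having chosen the listed genes, so nothing follows from the gap.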

How the data were processed

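The values are read counts per gene, deposited by the authors for each of the 54 libraries. Per the labels and the methods of the study, TruSeq stranded mRNA libraries were sequenced as single reads, trimmed with Cutadapt 1.8, aligned to TAIR10 with STAR 2.5.3a and counted with htseq-count 0.9.1, and the strand option is not given in the sources used here. Reads not placed on genes made up 4.72% to 5.15% of each table and were left out. 

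From these counts, the 19668 of 34262 genes that reached 1 CPM in any 1 library were scaled by TMM and fitted with the quasi-likelihood test of edgeR 4.0.16 in R 4.3.3, over all 54 libraries with 18 groups and batch as a block. *P*-values were adjusted by Benjamini-Hochberg within each contrast. The standard error is the size of the log2 fold change divided by the square root of the F statistic. The script was checked on simulated counts. CPM values use the TMM factors. Batch numbers come from the library titles, and libraries of the same batch but different groups deviated together from their group means (mean correlation 0.27 over 459 pairs, against −0.135 over 918 pairs of different batches), so the block was kept.

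Alternatives were limma-trend 3.58.1, DESeq2 1.42.0, DESeq2 size factors, other filters, no block, each batch left out, the 3 libraries with conflicting labels left out, and calls by adjusted *P*-value alone. Gene positions, translated coding sequences and windows came from RefSeq TAIR10.1, whose gene identifiers matched those in the files. The named genes were the 10 members, the 5 other peroxidases with the largest CIF2 response among those called in wild type or *cif1 cif2*, the Casparian strip peroxidases, close or adjacent relatives, and the 5 genes most like *PER15* and *PER49*. The members, the gene lists and the comparisons were chosen with earlier results of these data known. The depth of 21328819 to 38588050 reads limits low genes such as *PER58*.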

Additional observations from a re-analysis of the deposited data

Results flagged for a closer look

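Of 150 comparisons of effects between genotypes, 4 had every batch moving one way in the first genotype and the opposite way in the second. These differences were not tested. How often the same pattern arises among all genes was not counted, so nothing follows from the number flagged. *PER37* at 30 min was higher with CIF2 in each batch of wild type (log2 changes 0.90, 0.83 and 0.87) and lower in each batch of *sgn3* (−0.15, −0.17 and −0.18), a difference of 1.03. The fitted effect in *sgn3* minus that in wild type was −1.04 ± 0.17. It is given as a description, because its wild-type part is treated as having chosen the gene. In *cif1 cif2* the changes were 0.80, 1.18 and 0.75, a difference from *sgn3* of 1.08. The *sgn3* values are shared by both, and their own fitted change of −0.17 ± 0.12 did not pass the threshold.

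*PER32* without peptide was lower at 120 than at 30 min in each batch of wild type (−0.02, −0.13 and −0.11), and higher in each batch of *cif1 cif2* (0.29, 0.24 and 0.09) and of *sgn3* (0.06, 0.14 and 0.24). The differences of wild type from *cif1 cif2* and *sgn3* were −0.29 and −0.23, and the wild-type libraries are shared by both.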

How the results depend on the processing

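Counts of called genes among the 9 that were tested kept within 1.5 times under limma-trend, DESeq2, DESeq2 size factors, both other filters and the fit without the 3 libraries of conflicting labels, which gave no value for CIF2 in *cif1 cif2* at 480 min. Calls by adjusted *P*-value alone gave 5 (wild type with CIF2, 30 min), 8 (wild type, 120 min), 8 (*cif1 cif2*, 120 min), 1 (*sgn3* against wild type without peptide, 30 min), 1 (*cif1 cif2* against wild type with CIF2, 120 min) and 5 (480 against 30 min in *cif1 cif2*). The shares of all genes called in this way were 7.78%, 10.6%, 13.7%, 0.229%, 1.85% and 29.9%, in the same order. With each batch left out in turn, the calls from 30 to 120 min in *sgn3* ranged from 3 to 6. Without the batch block no count moved by more than 1.5 times, and the count at 480 min with CIF2 in wild type was 9. No called value turned its direction. Of the single-gene values under an alternative, 2118 kept their call in tested contrasts or stayed within 1 standard error in those without a test. Another 19 without a test moved by more than 1 standard error, and 5 in the untreated time course lost their call without 1 batch. A value within 1 standard error can still cross the fold threshold, as that of *PER5* in *cif1 cif2* at 30 min did without batch 2. Low counts limit *PER58*, and variation between batches limits *PER15*, *PER49* and *PER52* without peptide.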
